A study of Arabidopsis thaliana with 12 samples.

Results

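Transcripts of 3 genes that make the pigments of the chloroplast were followed in Arabidopsis plants treated with the herbicide bromoxynil. The genes were HEMA3 (AT2G31250), a glutamyl-tRNA reductase gene of tetrapyrrole synthesis, the geranylgeranyl reductase gene AT1G74470 of chlorophyll synthesis, and Z-ISO (AT1G10830), the zeta-carotene isomerase gene of carotenoid synthesis. They were chosen by locus from the probes whose platform annotation names exactly 1 gene. Each had 1 probe, so they are 3 of 689 loci named in this way, on 3 of 3439 probes. Arrays of 2 groups were compared. The bromoxynil group held 6 arrays of wild-type plants of the Landsberg ecotype that received bromoxynil at 500 µM, a herbicide of the nitrile class that stops photosystem II from passing on electrons. The water group held 6 arrays of wild-type plants of the same ecotype that received water. Plants of both groups had spent 12 h in darkness and were then exposed to light for 30 min, and the question was which transcripts differ with the herbicide at that point. The labels give neither the age of the plants nor whether the arrays came from separate plants or pools, and the p-values reflect variation among arrays that may be only technical.

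Plants build chlorophyll and haem from glutamate through a shared tetrapyrrole pathway. Glutamyl-tRNA reductase catalyses its first committed step and is held in check by haem and, in darkness, by the FLU protein, because free precursors of chlorophyll produce reactive oxygen in light. Geranylgeranyl reductase acts late: it reduces geranylgeranyl groups to the phytyl tail that anchors chlorophyll in the thylakoid membrane and that tocopherol also carries. Carotenoids share the geranylgeranyl precursor, protect chlorophyll from excess light, and are made by desaturation steps that pass electrons to plastoquinone, the carrier that photosystem II also reduces. Z-ISO turns the product of the first desaturase into the isomer that the next desaturase can use.

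The deposited values are intensities relative to the brightest feature, which stood at 100 on all 12 arrays. None of the 36 values of the 3 genes was 0, and all 3 probes lay above the dimmest 25% of probes. The median intensity of an array was 0.644 ± 0.0136 with bromoxynil and 0.467 ± 0.0202 with water (SD, n = 6 each), a shift of 0.46 on the log2 scale. Changes were therefore tested on quantile-normalised log2 values, where every array has the same distribution, and each change is the bromoxynil mean minus the water mean. Probe names were not checked against sequence. Because the plants were measured in bulk, fewer cells of a type and less RNA per cell cannot be told apart. Of 12 leaf marker genes 1 had a probe of its own, the antenna protein gene LHB1B2, at 6.94 to 8.67 with bromoxynil and 15.4 to 23.3 with water, and of 9 root marker genes 0 had one. LHB1B2 fell on quantile-normalised values, with a log2 change of -0.88 ± 0.12 (SE, adjusted p = 8.2e-05, limma). It was lower in 6 of 6 array numbers, as were 30.7% of all probes. LHB1B2 also passed on deposited values (log2 change -1.15, adjusted p = 5.9e-06) and with medians centred (-1.61, adjusted p = 8.6e-07, limma). There 18.6% and 34% of all probes passed in the lower direction. On quantile-normalised values it passed with consecutive numbers averaged (adjusted p = 0.0115, limma), as did 20.7% of all probes in that direction. After adjustment of each array for the inferred place of a probe, its change was -0.49 (adjusted p = 0.0512, limma) and did not pass. With the array number also kept as a block, a setting chosen after seeing the data, it passed (adjusted p = 0.0220). In that setting 27.9% of all probes passed in the lower direction. With consecutive numbers averaged as well, LHB1B2 did not pass (adjusted p = 0.108).

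None of the 3 pigment genes passed the test, against 54.4% of all probes (24.5% higher and 29.9% lower with bromoxynil, limma, Benjamini-Hochberg adjusted p under 0.05). At an unadjusted p under 0.05, AT1G74470 alone passed. The log2 changes were -0.21 for HEMA3, -0.30 for AT1G74470 and 0.090 for Z-ISO. Over all probes the median size of a change was 0.62 and the middle 90% of changes ran from -1.44 to 1.61. A change smaller in size was found for 18.1% of probes in the case of HEMA3, 25.4% for AT1G74470 and 8.20% for Z-ISO. The values of the groups overlapped for all 3 genes, whereas 36.5% of all probes had groups that did not overlap.

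**Figure D1:**
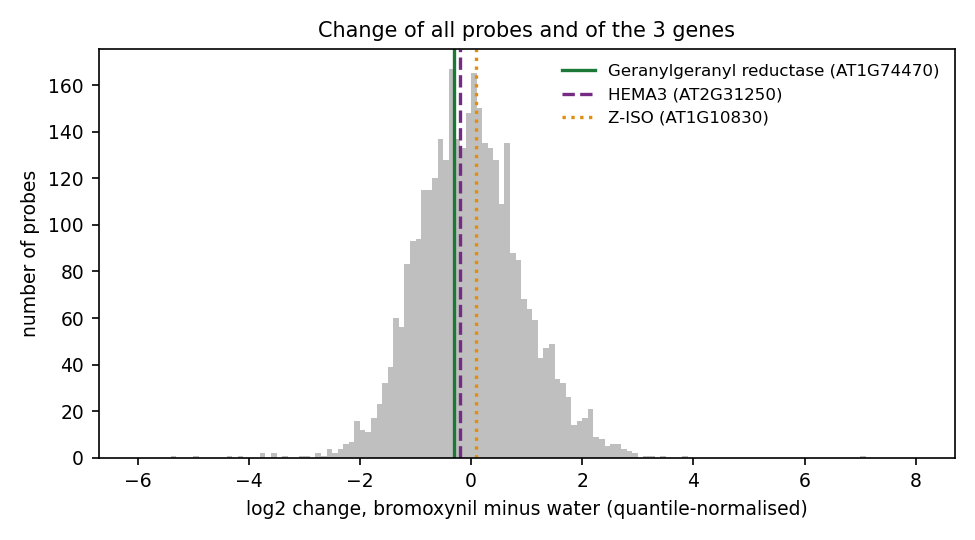
Histogram of the log2 change (bromoxynil minus water, quantile-normalised, x axis) of all 3439 probes in bins of 0.1, with the number of probes on the y axis. The vertical lines mark AT1G74470 at -0.30, HEMA3 at -0.21 and Z-ISO at 0.090, all near the middle of the distribution.

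HEMA3 belongs to the small family of glutamyl-tRNA reductase genes, of which HEMA1 is the light-induced member. Its deposited intensity had a lowest value of 0.615, a median of 0.820 and a highest value of 0.892 with bromoxynil, against 0.563, 0.685 and 0.899 with water. The bromoxynil values lay within the range of the water values. On average HEMA3 stood at 0.790 ± 0.106 with bromoxynil and 0.692 ± 0.126 with water (SD, n = 6 each), and the deposited log2 values differed by 0.20 ± 0.14 (SE, adjusted p = 0.240, limma), less than the shift of 0.46 in the median of all probes. On quantile-normalised values the log2 change was -0.21 ± 0.14 (SE, adjusted p = 0.231, limma), with a 95% interval of -0.51 to 0.10, which is 0.700-fold to 1.07-fold. Changes of 2-fold in either direction lie outside that interval. Arrays carry a number from 1 to 6 in their titles, and within numbers HEMA3 was higher with bromoxynil in 2 of 6, numbers 4 and 5, by 0.12 and 0.004 on the log2 scale. In the other 4 numbers the difference was between -0.45 and -0.16. Both signs occurred among the 6 numbers for 39.8% of all probes. Whether the HEMA3 probe also binds transcripts of HEMA1 or HEMA2 was not tested.

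Geranylgeranyl reductase, AT1G74470, had a lowest intensity of 1.13, a median of 1.23 and a highest value of 1.51 with bromoxynil, against 1.02, 1.43 and 1.56 with water. The groups overlapped, and arrays 5 and 6 stood opposite to the other 4 numbers in both groups. Bromoxynil arrays 5 and 6 were the highest of their group, at 1.51 and 1.46, while the others lay between 1.13 and 1.24. Water arrays 5 and 6 were the lowest of their group, at 1.02 and 1.06, while the others lay between 1.40 and 1.56. The means were 1.28 ± 0.162 with bromoxynil and 1.34 ± 0.237 with water (SD, n = 6 each). On quantile-normalised values the log2 change was -0.30 ± 0.14 (SE, adjusted p = 0.0816, limma), with a 95% interval, not adjusted for the other probes, of -0.60 to -0.003. An exact two-sided permutation test over all 924 assignments of arrays to groups gave p = 0.0649. AT1G74470 passed when bromoxynil array 5 was left out (log2 change -0.37, adjusted p = 0.0375) or water array 5 (-0.36, adjusted p = 0.0393, limma), and in none of the other 10 omissions of 1 array. In those fits 29% and 29.1% of all probes passed in the lower direction. With each array centred on its median in place of quantile normalisation, AT1G74470 passed the test, with a log2 change of -0.51 ± 0.14 (SE, adjusted p = 0.00837, limma), as did 34% of all probes in the lower direction.

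**Figure D2:**
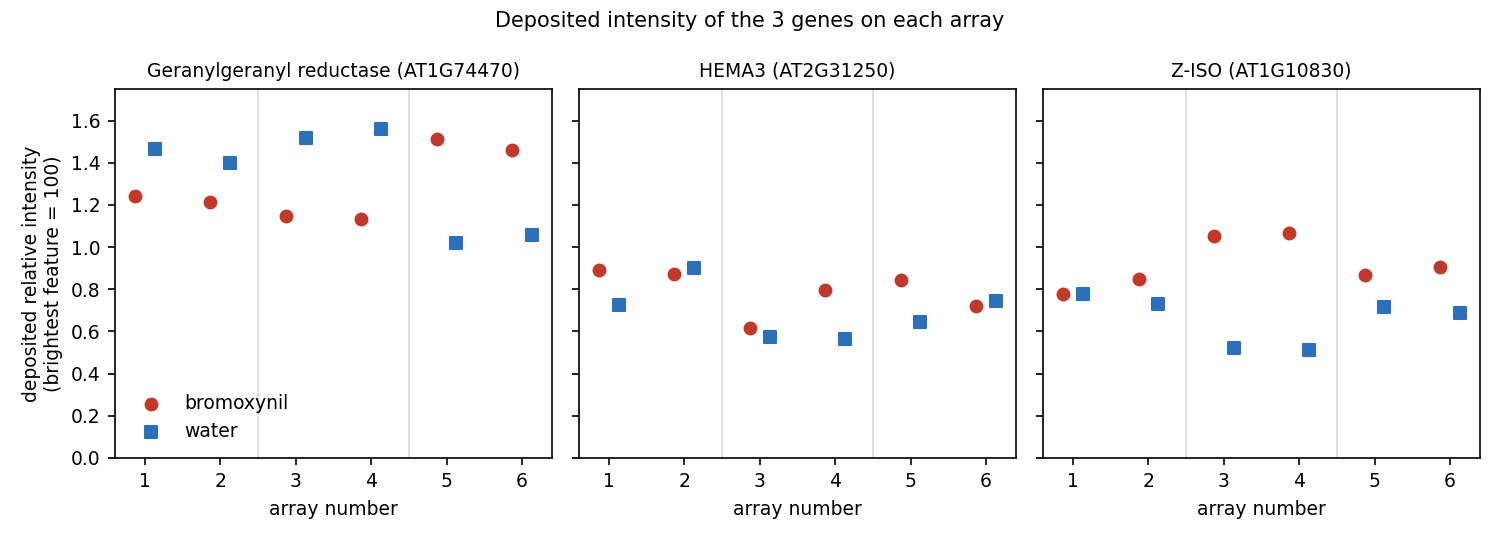
Deposited relative intensity (y axis, brightest feature at 100) of AT1G74470, HEMA3 and Z-ISO on each array, by array number (x axis), with bromoxynil as circles left of water as squares. For AT1G74470 the bromoxynil values lie below the water values in numbers 1 to 4 and above them in numbers 5 and 6, and for Z-ISO the gap is widest in numbers 3 and 4.

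Arrays of consecutive numbers gave nearly the same reading of AT1G74470. Within the pairs 1 and 2, 3 and 4, and 5 and 6 the quantile-normalised values differed by at most 0.070 with bromoxynil and 0.052 with water on the log2 scale. The means of these pairs spanned 0.51 with bromoxynil and 0.47 with water. The change was -0.51 in the first pair, -0.69 in the second and 0.29 in the third. Its sign thus turned between pairs, as it did for 27.9% of all probes. In a setting chosen after these values were seen, numbers 5 and 6 were left out, and the log2 change of AT1G74470 was -0.59 ± 0.07 (SE, adjusted p = 0.00047, limma, n = 4 per group), where 27% of all probes passed in that direction. It was -0.11 without numbers 3 and 4 and -0.20 without numbers 1 and 2, and neither passed the test. As arrays of a pair read nearly alike, the 4 arrays per group may not count as 4 independent values. The SE and p-value without numbers 5 and 6 may then be too small. With consecutive numbers averaged and all numbers kept, the change of AT1G74470 was -0.30 ± 0.21 (SE, adjusted p = 0.307, limma). The labels do not say what a number or a pair of numbers shares, and its part in the result was not tested.

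Z-ISO had a lowest intensity of 0.780, a median of 0.886 and a highest value of 1.07 with bromoxynil, against 0.513, 0.701 and 0.775 with water. On the deposited scale every bromoxynil array lay above every water array, though the lowest bromoxynil value exceeded the highest water value only slightly. The groups did not overlap in that direction for 25.9% of all probes on the same scale. The means were 0.920 ± 0.116 with bromoxynil and 0.656 ± 0.112 with water (SD, n = 6 each), and the deposited log2 values differed by 0.50 ± 0.13 (SE, adjusted p = 0.00744, limma), as did 37.8% of all probes in the higher direction. This is close to the shift of 0.46 in the median of all probes. On quantile-normalised values the log2 change was 0.090 ± 0.14 (SE, adjusted p = 0.617, limma), with a 95% interval of -0.22 to 0.40, and with medians centred it was 0.034.

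Z-ISO also read alike on consecutive numbers, which differed by at most 0.14 with bromoxynil and 0.082 with water on the quantile-normalised log2 scale. Its largest difference came from numbers 3 and 4, where the deposited intensity was 1.05 and 1.07 with bromoxynil, against 0.519 and 0.513 with water. These are ratios of 2.02 and 2.08. In the other 4 numbers the ratios lay between 1.01 and 1.32. On quantile-normalised values the change was -0.35 in the first pair of numbers, 0.67 in the second and -0.042 in the third. Without numbers 3 and 4 the log2 change of Z-ISO was -0.20, against 0.31 without numbers 1 and 2, and neither passed the test. Of the 3 pairs, the second thus held the highest change of Z-ISO and the lowest change of AT1G74470.

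**Figure D3:**
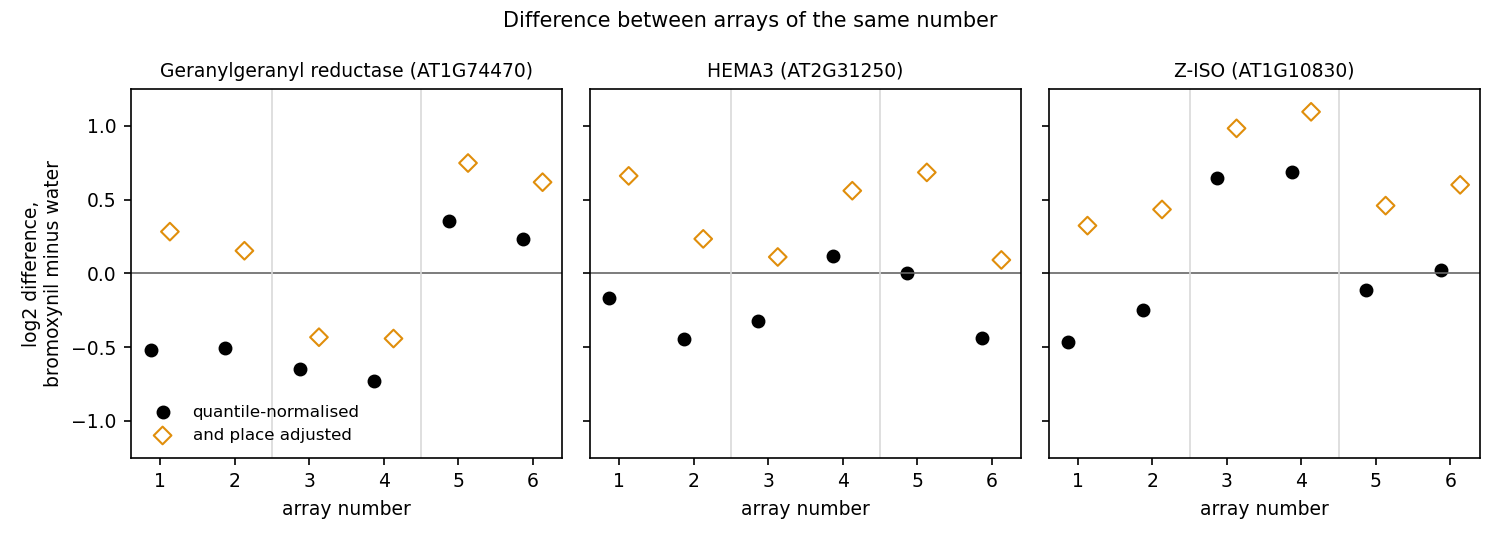
Log2 difference between the bromoxynil and the water array of the same number (y axis) for each of the 6 numbers (x axis), on quantile-normalised values (filled circles) and after each array was also adjusted for probe place (open diamonds). AT1G74470 runs from -0.73 in number 4 to 0.35 in number 5, and Z-ISO from -0.46 in number 1 to 0.69 in number 4, on quantile-normalised values.

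The order of probe numbers moved with the changes as well. No layout of the array was given in the sources used here. The place of a probe was inferred from a repeat of every 288 probe numbers, found in the difference between water arrays with a rank autocorrelation of 0.281. The adjustment for place also took 12 columns in the repeat, a number that was set and not inferred. In this repeat the median change in a window of 6 places to either side ran from -0.78 to 0.73 over the array. All 3 pigment genes lay at places with negative medians: -0.52 over 156 other probes around HEMA3, -0.38 over 150 around AT1G74470 and -0.75 over 149 around Z-ISO. So did LHB1B2 (-0.45) and the genes CHLM (-0.43), SIRB (-0.42) and AT1G78620 (-0.50), described below. The share of all probes at such places is not given. When each array was adjusted for place, the log2 change of Z-ISO was 0.65 ± 0.11 (SE, adjusted p = 0.00048, limma), higher with bromoxynil in 6 of 6 numbers, as were 23.2% of all probes. That of HEMA3 was 0.39 ± 0.12 (SE, adjusted p = 0.0196), also higher in 6 of 6 numbers. AT1G74470 had a change of 0.15 ± 0.16 (SE, adjusted p = 0.445), and its sign still turned between the pairs of numbers, with changes of 0.22, -0.44 and 0.68. On these values 2 of the 3 genes passed, against 47.3% of all probes (21.9% higher and 25.4% lower). When consecutive numbers were also averaged and the number was kept as a block, 0 of the 3 genes passed, with adjusted p-values of 0.0673 for Z-ISO, 0.103 for HEMA3 and 0.671 for AT1G74470, against 27.4% of all probes (limma). The log2 changes were the same as without averaging, and 3 values per group remained. The signs of HEMA3 and AT1G74470 therefore depended on the place adjustment, while the change of Z-ISO was above 0 with and without it and passed the test only with it on quantile-normalised values.

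**Figure D4:**
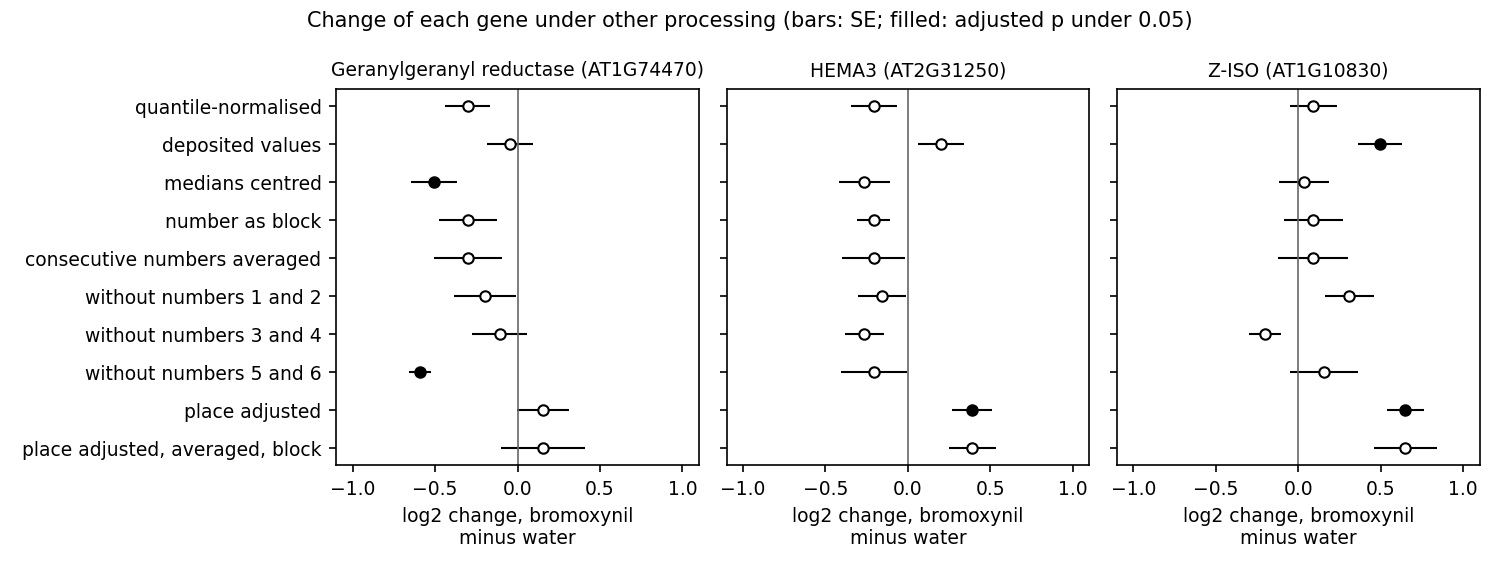
Log2 change (bromoxynil minus water, x axis) of AT1G74470, HEMA3 and Z-ISO under 10 ways of processing (y axis), with bars for the SE and filled points where the adjusted p was under 0.05. The 3 genes pass in different settings: AT1G74470 with medians centred and without numbers 5 and 6, HEMA3 with place adjustment, and Z-ISO on deposited and on place-adjusted values.

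The next comparison asked whether the 3 genes changed differently from each other. The log2 difference between 2 probes was taken within each array, which removes a factor common to the array, and compared between the groups. The change of AT1G74470 was 0.39 lower than that of Z-ISO, which gave p = 0.123 in an exact two-sided permutation test (0.185 adjusted over the 3 pairs). The change of Z-ISO was 0.30 higher than that of HEMA3 (exact permutation p = 0.102, adjusted 0.185). The within-array difference of these probes was 0.23 ± 0.38 with bromoxynil and -0.072 ± 0.15 with water (SD, n = 6 each). AT1G74470 and HEMA3 had changes that differed by -0.093 (exact permutation p = 0.641). None of the 3 pairs passed the permutation test, which does not show that the genes responded alike. After place adjustment the corresponding values were -0.49, 0.26 and -0.24, and again none passed.

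Other genes of the pigment pathways were rarely measured. Of 99 loci on 9 lists of pigment pathways and their precursors, 6 had a probe that names only them, which are the 3 genes above and 3 more. A further 5 probes name several genes that include a listed one, and no gene was named from them. Of the 6 genes, 0 passed in limma, against 54.4% of all probes. Only 1, AT1G74470, had an unadjusted p under 0.05, as did at least 54.4% of all probes. The median log2 change of the 6 genes on quantile-normalised values was -0.22, against -0.037 over all probes. Several of these changes had the sign turned after place adjustment. They were then 0.15 for AT1G74470, 0.39 for HEMA3 and 0.65 for Z-ISO. For the other 3 genes, described below, they were 0.21 (CHLM), 0.38 (AT1G78620) and -0.18 (SIRB). Of the 9 lists, 4 had no measured gene: tetrapyrrole control, chlorophyll turnover, carotenoid cleavage and plastid isoprenoid supply.

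CHLM (AT4G25080), the methyltransferase of the magnesium branch of chlorophyll synthesis, was the other measured gene of that branch beside AT1G74470. Its intensity had a lowest value of 0.557, a median of 0.764 and a highest value of 0.940 with bromoxynil, against 0.584, 0.643 and 0.868 with water. The log2 change on quantile-normalised values was -0.24 ± 0.14 (SE, adjusted p = 0.165, limma), close to that of HEMA3. The change of CHLM was -0.36 in numbers 1 and 2, 0.12 in numbers 3 and 4 and -0.48 in numbers 5 and 6. The second pair thus stood apart for CHLM, whereas for AT1G74470 it was the third. After place adjustment it was 0.21 (adjusted p = 0.171).

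SIRB (AT1G50170), the ferrochelatase that completes sirohaem, lies on a side branch of the tetrapyrrole pathway, and its probe was among the dimmest 25%. Its intensity ranged from 0.0611 to 0.401 with bromoxynil and from 0.0527 to 0.591 with water. Arrays 3 and 4 were the lowest of both groups, and the log2 change was -0.50 ± 0.76 (SE, adjusted p = 0.604, limma). Without numbers 3 and 4, an omission chosen after these values were seen, it was -0.98 ± 0.20 (SE, adjusted p = 0.0053), where 27.9% of all probes passed in that direction. It was -0.056 (adjusted p = 0.985) without numbers 1 and 2 and -0.49 (adjusted p = 0.730) without numbers 5 and 6. AT1G78620 encodes a phytyl phosphate kinase of tocopherol synthesis, which takes phytyl groups of the kind that geranylgeranyl reductase makes. Its log2 change was -0.064 ± 0.18 (SE, adjusted p = 0.785), and 0.38 (adjusted p = 0.0482) after place adjustment, where it no longer passed with the number as a block (adjusted p = 0.0806) or with averaging and block (adjusted p = 0.197).

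Among the 498 other named genes with probes above the dimmest 25%, those whose quantile-normalised values over the 12 arrays were most like each gene were listed by Pearson correlation. For AT1G74470 they were AT3G09080 (r = 0.817), AT3G52070 (0.794) and AT5G11010 (0.780). AT3G09080 had an r of 0.844 when deviations from the group means were correlated and of 0.483 after place adjustment. Its log2 change was -0.93 ± 0.14 (SE, adjusted p = 0.00017, limma), which passed the test, as did 29.9% of all probes in that direction. AT3G52070 (-0.49, adjusted p = 0.00466) and AT5G11010 (-0.36, adjusted p = 0.0326, limma) passed as well. For HEMA3 they were AT5G10920 (r = 0.845), the argininosuccinate lyase gene of arginine synthesis, GLR2.7 (0.841), a glutamate receptor-like channel gene, and AT3G51500 (0.835). For Z-ISO they were AT3G52550 (r = 0.814), AT4G39570 (0.736) and AT3G50880 (0.681). Of the genes listed for HEMA3 and Z-ISO, GLR2.7 alone passed, with a log2 change of -0.51 (adjusted p = 0.00965, limma). After place adjustment the correlations of Z-ISO were 0.833 with AT3G52550, 0.789 with AT4G39570 and 0.552 with AT3G50880. Those of AT1G74470 were 0.483 with AT3G09080, 0.719 with AT3G52070 and -0.21 with AT5G11010. For HEMA3 they were 0.605 with AT5G10920, 0.345 with GLR2.7 and 0.068 with AT3G51500. These values describe arrays that share numbers, groups and places, and they are the highest of many.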

How the data were processed

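The deposited table holds array intensities on a linear scale for 3439 probes and 12 arrays, relative to the brightest feature. The authors' scanning, background and spot handling were not given in the sources used here, and precision is limited by the number of arrays. Of the 692 probes that name 1 gene in the platform annotation, 690 were matched by gene identifier to loci of TAIR10.1, used for names only. The members, lists and settings were chosen with earlier results of these data known. Named genes were the 3 members, every measured gene of the fixed lists, and the 3 genes most correlated with each member.

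Zeros took the smallest positive intensity found on their array, log2 was taken and arrays were quantile-normalised. Each probe was tested in limma 3.58.1 (R 4.3.3, lmFit and eBayes, two-sided), with Benjamini-Hochberg adjustment over all probes and a threshold of 0.05. The place adjustment subtracted, per array, the median over a window of 6 places to either side in a repeat of 288 probe numbers, then that of each of 12 columns. The number of columns was set and was not searched for in the data. Lags of 49 to 1151 were searched for the repeat, by rank autocorrelation of the difference between water arrays 1 and 2 and water arrays 3 and 4. Deviations from the group means correlated between arrays of one number at 0.323 to 0.418 over all probes, each above 0.1. On that basis the fits with a replicate block took the numbers to pair the arrays. The main fit and the exact permutation tests did not use this pairing. No correlation between arrays of different numbers is given for comparison. For single values the smallest p the exact permutation test of 12 arrays can give is 0.00216. The procedures were tested on simulated data with independent noise on each array. Likeness between arrays of consecutive or equal numbers was not simulated, so those data cannot vouch for p-values where it occurs. Plots were made in Python 3.11.15 with matplotlib 3.10.9.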

Additional observations from a re-analysis of the deposited data

How the results depend on the processing

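The 3 genes kept their direction and their side of the threshold with a pseudocount, with zeros as missing values, without the dimmest 25% of probes, with an intensity trend and robust variances, with the replicate block and with consecutive numbers averaged. With the replicate block the adjusted p-values were 0.114 for HEMA3, 0.185 for AT1G74470 and 0.688 for Z-ISO (limma), and on quantile-normalised values the block changed the call of 0 of the 6 pathway genes. On the deposited values HEMA3 had a log2 change of 0.20, CHLM of 0.17 and AT1G78620 of 0.37, with the sign turned, and Z-ISO passed at 0.50. With medians centred AT1G74470 passed at -0.51. With place adjustment, alone, with the block, or with averaging and the block, the changes were 0.15 for AT1G74470, 0.39 for HEMA3, 0.21 for CHLM and 0.38 for AT1G78620, all with the sign turned, and 0.65 for Z-ISO, which passed with place adjustment alone and with the block (adjusted p = 0.00535). HEMA3 passed there too (adjusted p = 0.0287). The cause of these shifts was not tested. Without numbers 3 and 4 the change of Z-ISO was -0.20, AT1G74470 minus HEMA3 was 0.16 and AT1G74470 minus Z-ISO was 0.094. Without numbers 1 and 2, AT1G78620 had a change of 0.14, and without numbers 5 and 6 AT1G74470 passed at -0.59. These omissions and the place adjustment with the block alone were chosen after seeing the data.

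When single arrays were left out, the change of AT1G74470 lay between -0.37 and -0.26, and it passed without bromoxynil array 5 (adjusted p = 0.0375) and without water array 5 (0.0393). There 29% and 29.1% of all probes passed in the lower direction. HEMA3 ranged from -0.27 to -0.13 and Z-ISO from 0.015 to 0.15, and neither passed. AT1G74470 minus HEMA3 ranged from -0.17 to 0.017, the highest without water array 4, and AT1G78620 from -0.15 to 0.072. Of the 6 measured pathway genes, 0 were called with quantile normalisation and between 0 and 1 with single arrays left out. The count was 1 on deposited values (56.4% of all probes called), 1 with medians centred (54.5%), 3 with place adjustment (47.3%), 2 with place adjustment and block (52%), 1 without numbers 3 and 4 (49.3%), and 1 without numbers 5 and 6 (48.1%), so in each setting the 6 genes were called at a share near or below that of all probes. Over all probes 1872 were called, against 1230 with consecutive numbers averaged and 943 when place adjustment and block were added. Signal over background was not given, so depth limits could not be set for single probes.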
